A study of Homo sapiens with 20 samples.

Results

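HCT116, a human colon cancer cell line, lacks DROSHA in the 6 libraries described here, and the knockout cells were given back either full-length DROSHA or the shorter form DROSHA-p140. The libraries were taken by their titles, 3 with full-length DROSHA and 3 with p140, which makes 6 of the 20 small RNA libraries in the series. DROSHA knockout is thus common to both groups, and they differ in the form of DROSHA put back. For reference, a single library of HCT116 knockout cells given GFP and a single library of untreated wild-type HCT116 cells were used, with 6 libraries of knockout HEK293E cells, a human embryonic kidney line, that carry the same pair of DROSHA forms. The labels do not say whether the knockout cells are 1 clone, how much of each form was made, or whether replicates were separate cultures, so the tests below read the spread among these libraries alone, and that spread may be technical. The series title names the proline-rich disordered domain of DROSHA and miRNAs made from introns as its subject.

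DROSHA cuts microRNA (miRNA) hairpins out of long primary transcripts in the nucleus, and Dicer then trims the hairpin to a duplex of a 5p and a 3p arm. Many hairpins lie in introns, where cutting by DROSHA and splicing act on the same transcript. Mirtrons are hairpins that are short introns themselves, freed by splicing without DROSHA, and a few others, such as miR-320a and miR-484, come from capped transcripts and also bypass it.

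Sequences are given for the miRNAs that carry the main results, from RefSeq (GRCh38.p14), 5′ to 3′, with bases 2 to 8, the seed that pairs with target mRNAs, in capitals. Among the miRNAs that were lowest with p140, 3 intronic ones have unrelated seeds:
miR-421: aUCAACAGacauuaauugggcgc
miR-629-5p: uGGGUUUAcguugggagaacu
miR-1301-3p: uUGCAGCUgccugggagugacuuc
Among the highest with p140 were a mirtron and 2 miRNAs annotated outside genes, of which miR-1260b is on a list of miRNAs whose reads may be fragments of other small RNAs:
miR-877-5p: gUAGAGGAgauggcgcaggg
miR-4521: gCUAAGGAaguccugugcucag
miR-1260b: aUCCCACCacugccaccau
The hairpin of miR-877-5p is shown whole, with the mature miRNA in capitals, because its 86 nt are also the length of the ABCF1 intron that holds it:
miR-877 hairpin: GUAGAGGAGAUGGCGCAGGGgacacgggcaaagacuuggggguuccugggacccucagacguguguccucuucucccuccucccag
Pairs that share a seed but are made from different loci or hairpins are shown together. Only for miR-221-3p and miR-222-3p was the difference between their changes tested:
miR-21-5p: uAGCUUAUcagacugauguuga
miR-590-5p: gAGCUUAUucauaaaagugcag
miR-19a-3p: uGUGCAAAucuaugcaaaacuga
miR-19b-3p: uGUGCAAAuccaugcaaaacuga
miR-221-3p: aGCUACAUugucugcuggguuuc
miR-222-3p: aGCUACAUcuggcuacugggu
miR-301a-3p: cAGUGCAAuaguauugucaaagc
miR-130b-3p: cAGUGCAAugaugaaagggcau
In the polycistron MIR17HG, miR-17-5p and miR-20a-5p share a seed and miR-18a-5p has another:
miR-17-5p: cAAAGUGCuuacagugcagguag
miR-18a-5p: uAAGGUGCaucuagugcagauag
miR-20a-5p: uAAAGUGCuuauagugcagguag

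Depth and replicates bear on all that follows. The full-length libraries held 764015 to 873718 miRNA reads and the p140 libraries 305603 to 327011, and 446 of 2588 mature miRNAs had enough reads to be tested. The libraries numbered 3 stood apart in both groups. In median absolute log2 difference, full-length replicates 1 and 2 lay 0.14 apart, and replicate 3 lay 0.38 and 0.37 from them. The same distances with p140 were 0.26, 0.57 and 0.56. Counts and calls that change without both replicates 3 are given beside the results. DROSHA mRNA is not measured by these counts. As a check of the knockout label, the DROSHA-independent miR-320a had 611575 CPM (reads scaled to a common library total) in the knockout with GFP and 11889 CPM in wild type. The colon epithelium list made up 2.72% to 3.0% of reads in the full-length libraries, 3.22% to 3.66% in the p140 ones and 7.01% in untreated wild type. In the 6 libraries that share was mostly miR-31-5p, with 19244 of 23797 list reads in full-length replicate 1 and 8995 of 10124 in p140 replicate 1. Of the 6 tested members 3 fell and 1 rose, with a median log2 fold change of -0.75. miR-200c-3p stood at 163 to 198 CPM in the full-length libraries and at 71.7 to 104 CPM in the p140 ones. It had 25988 CPM in untreated wild type and 2664 CPM in the knockout with GFP. Blood markers made up 9.8e-04% to 0.0052% of reads and pluripotency markers at most 9.2e-04%, with miR-223-3p, miR-302d-3p and miR-367-3p at 0 in all 6 libraries.

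With p140 in place of full-length DROSHA, 139 of 446 miRNAs fell (31.2%) and 127 rose (28.5%) at an adjusted p under 0.05 (Benjamini-Hochberg adjustment of edgeR's quasi-likelihood test), so that 59.6% changed. The falls reached further than the rises. Of the falls, 106 were over 2-fold, 48 over 4-fold and 21 over 8-fold, of which 19 still had reads in a p140 library. Of the rises, 115 were over 2-fold, 27 over 4-fold and 0 over 8-fold. The median log2 fold change was -1.53 over the falls and 1.78 over the rises, against -0.11 over all tested miRNAs. The 2 groups did not overlap for any of the 139 falls nor for 113 of the rises, and 64.8% of all tested miRNAs had no overlap. In bulk RNA, fewer cells that respond and a smaller output per cell cannot be told apart.

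Counts of calls moved with replicate 3 and with the scale. Without both replicates 3 there were 178 falls and 188 rises, which included 138 of the 139 falls and 126 of the 127 rises. Rises numbered 191 without p140 replicate 3, but 70 without full-length replicate 3, 76 without full-length replicate 2 and 79 without p140 replicate 2. Within the pairs of 1 number, the median log2 ratio over the rises was 1.98, 1.97 and 1.11 for numbers 1, 2 and 3, while over the falls it was -1.47, -1.47 and -1.49. When the libraries were scaled to the DROSHA-independent miRNAs, the median over all miRNAs moved by -1.52 and the calls became 170 falls and 0 rises (38.1% and 0%, with 0 rises at an unadjusted p under 0.05, edgeR), in place of 52.3% falls among the calls. That scale is the summed reads of the list, of which miR-320a made up most. It held 34007 of 39675 list reads in full-length replicate 1 and 18515 of 23164 in p140 replicate 3. Of the 139 falls, 133 were called on that scale too, though it moves values downward, so that their direction was built in. Every "rose" below is therefore relative to the bulk of miRNA reads.

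**Figure D1:**
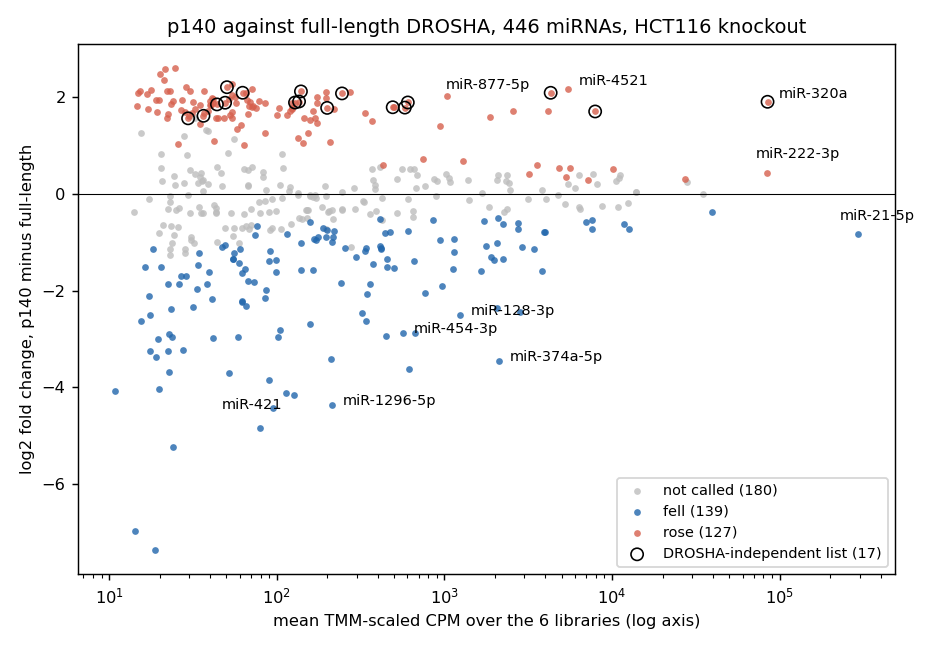
Log2 fold change (p140 minus full-length) against mean TMM-scaled CPM over 6 libraries on a log axis, 1 point per miRNA, coloured by call, with the DROSHA-independent list circled. Most of the 127 rises form a band near the list's median of 1.89, while the 139 falls spread down to below -4.

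The 8 largest falls and 8 largest rises were picked among called miRNAs at a mean of 100 CPM or more whose groups do not overlap. Lack of overlap in them is thus part of the choice. Of these falls, 7 were in introns and 1 was intergenic. Among all 446 tested miRNAs 247 were intronic, not counting the DROSHA-independent list and miRNAs with copies in several classes. miR-1296-5p (chr10:63373012-63373033, minus strand), in an intron of the histone demethylase gene JMJD1C, had 434, 403 and 382 CPM with full-length DROSHA and 26.3, 10.0 and 22 CPM with p140. All p140 libraries lay far below all full-length ones, and the log2 fold change was -4.36 ± 0.32 (edgeR, adjusted p = 1.4e-04). With p140 its values rest on 8, 3 and 8 reads. miR-629-5p (chr15:70079427-70079447, minus strand), in an intron of the corepressor gene TLE3, had 188, 209.6 and 250.1 CPM with full-length DROSHA and 9.86, 3.34 and 22 CPM with p140. The groups did not overlap, and with p140 the values rest on 3, 1 and 8 reads. It fell by 4.12 on the log2 scale (edgeR, adjusted p = 5.1e-04), with -4.96 without replicates 3.

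The FTX gene, a long noncoding gene on the X chromosome, held 3 of the 8 largest falls. miR-374a-5p (chrX:74287325-74287346, minus strand), the most abundant of its hairpins, had 3735, 3867 and 4036 CPM with full-length DROSHA and 332, 281 and 438 CPM with p140. The groups lay far apart, with a log2 fold change of -3.47 ± 0.20 (edgeR, adjusted p = 5.0e-05). miR-374b-5p (chrX:74218587-74218608, minus strand) had 1005, 991 and 1406 CPM with full-length DROSHA and 85.4, 56.8 and 132 CPM with p140. Its neighbour miR-421 (chrX:74218392-74218414, minus strand) had 221, 219 and 279.6 CPM with full-length DROSHA and 3.29, 10.0 and 24.8 CPM with p140. Both were highest in replicate 3 of each group, and they changed by -3.62 ± 0.33 and -4.16 ± 0.48. With p140, miR-421 rests on 1, 3 and 9 reads. All 6 tested mature miRNAs of the FTX hairpins fell, with log2 fold changes between -4.16 and -3.26 and a median of -3.65.

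Introns of genes with unrelated functions gave the other large falls. miR-1301-3p (chr2:25328651-25328674, minus strand), in the DNA methyltransferase gene DNMT3A, had 412, 332 and 412 CPM with full-length DROSHA and 29.6, 23.4 and 52.4 CPM with p140. miR-625-3p (chr14:65471153-65471174, plus strand), in the fucosyltransferase gene FUT8, had 177, 174 and 188 CPM with full-length DROSHA and 23, 26.7 and 19.3 CPM with p140. They fell by 3.42 and 2.96 on the log2 scale (edgeR, adjusted p = 2.2e-04 and 1.8e-04), with no overlap. miR-345-5p (chr14:100307876-100307897, plus strand) lies in no annotated host gene, had 734, 779 and 864 CPM with full-length DROSHA and 131, 63.5 and 113 CPM with p140, and changed by -2.94 ± 0.28. On the DROSHA-independent scale these 8 miRNAs had log2 fold changes between -5.97 and -4.50, all called, a direction that the scale builds in. Without replicates 3 they lay between -5.11 and -2.91.

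The largest rises were smaller and more alike, and p140 replicate 3 was the lowest p140 library for all 8. miR-4521 (chr17:8186948-8186969, plus strand), intergenic, had 1965, 1956 and 1995 CPM with full-length DROSHA and 10332, 11634 and 4789.6 CPM with p140. Full-length libraries were nearly equal, while p140 replicate 3 was well below the other p140 libraries, and the log2 fold change was 2.18 ± 0.30 (edgeR, adjusted p = 0.0014). The mirtron miR-877-5p (chr6:30584332-30584351, plus strand), which is the spliced intron of the ABCF1 gene shown above, had 2242, 1548 and 1116 CPM with full-length DROSHA and 9389, 8852 and 2659 CPM with p140, a change of 2.09 ± 0.47. Replicate 3 was lowest in each group, and p140 replicate 3 lay only slightly above full-length replicate 1.

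The other large rises again had their lowest p140 level in replicate 3. miR-1224-5p, a mirtron of VWA5B2 (chr3:184241405-184241423, plus strand), had 64.4, 45.9 and 45.0 CPM with full-length DROSHA and 322, 251 and 107 CPM with p140. The groups did not overlap, and it rose by 2.12 on the log2 scale (edgeR, adjusted p = 0.0053). miR-1275 (chr6:34000018-34000034, minus strand) had 141, 114 and 52.0 CPM with full-length DROSHA and 598, 564 and 179 CPM with p140. miR-636, within the splicing factor gene SRSF2 (chr17:76736466-76736488, minus strand), had 49.2, 75.4 and 81.5 CPM with full-length DROSHA and 289, 404 and 141 CPM with p140. Neither overlapped between the groups, at log2 fold changes of 2.11 ± 0.52 and 2.01 ± 0.41. miR-4286 had 79.5, 71.8 and 70.2 CPM with full-length DROSHA and 286, 524 and 154 CPM with p140, and miR-1260b (chr11:96341447-96341465, plus strand) had 369.9, 322 and 532 CPM with full-length DROSHA and 1446, 2114 and 1416 CPM with p140. miR-1260b is on the list of possible fragments of other small RNAs. Neither overlapped between the groups, and they rose by 2.11 and 2.02 on the log2 scale. On the DROSHA-independent scale the 8 rises had log2 fold changes of 0.08 to 0.31 and none was called (edgeR, lowest adjusted p = 0.69). Members of the list that sets this scale, such as miR-877-5p and miR-1224-5p, were among them, and small values were built in for these. The same holds for any miRNA that rose about as much as the list, whose median was 1.89.

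**Figure D2:**
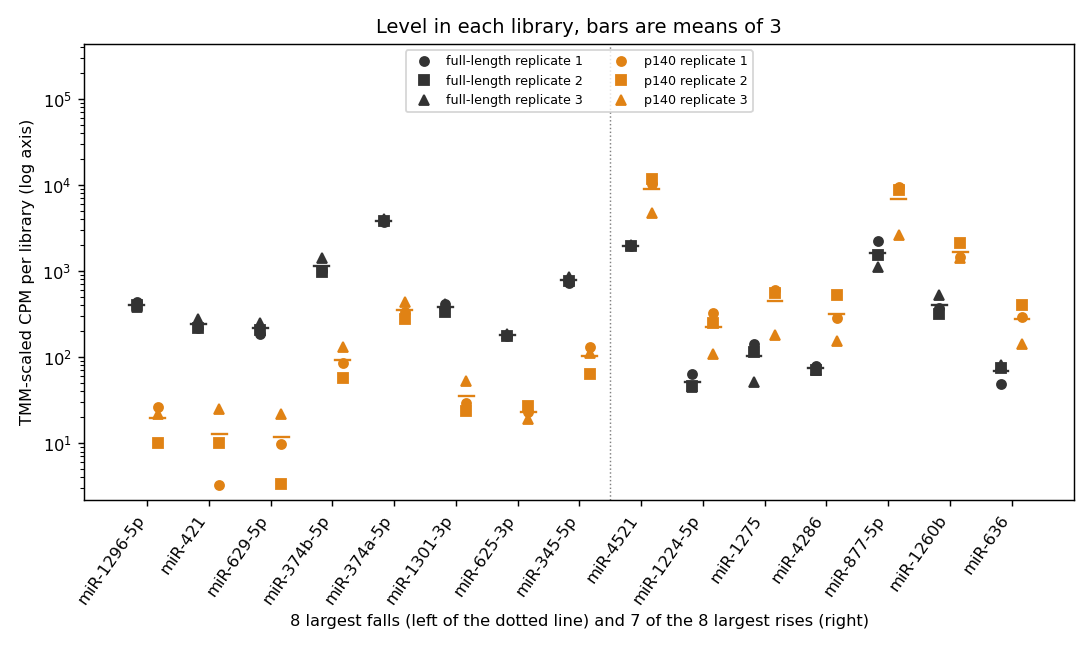
TMM-scaled CPM in each library on a log axis for the 8 largest falls (left) and 7 of the 8 largest rises (right), with symbols for replicate numbers and bars for the mean of 3. The miRNAs shown were picked for groups that do not overlap. For the rises the p140 replicate 3 triangle is the lowest p140 point.

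The rises were mostly miRNAs that also took a larger share of reads in the library of cells without DROSHA. Of the 127 rises, 109 had a higher CPM in the GFP knockout library than in the wild-type one (85.8%), against 126 of all 446 tested (28.3%), and of those 126 miRNAs 86.5% rose with p140. Of the 139 falls, 132 were lower in the knockout, which is 41.5% of the 318 tested miRNAs that were lower there. These reference libraries have no replicates, and the knockout with GFP held 38288 reads, and 48 of the falls had 0 reads in it. There 1 read is 26.1 CPM, so a miRNA that is low in wild type can count as higher on 1 read. The DROSHA-independent list took 70.0% of reads in the knockout with GFP and 1.27% in wild type. Higher and lower CPM thus compare shares of reads and not amounts per cell.

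A smaller set of rises went the other way, since 17 of the 127 were lower in the knockout than in wild type. They included abundant miRNAs with small changes, such as miR-181a-5p, the angiogenic miR-126-3p in an intron of EGFL7, and miR-34a-5p, a target of p53. miR-34a-5p had 4168, 4295 and 5292 CPM with full-length DROSHA and 5242, 7489 and 7091 CPM with p140, a log2 fold change of 0.53 ± 0.17 that was -1.02 on the DROSHA-independent scale. The groups overlapped, in that p140 replicate 1 lay below full-length replicate 3. Larger changes were those of miR-941, in an intron of DNAJC5, and of miR-2110 in an exon of CCDC186. miR-941 had 165, 135 and 177 CPM with full-length DROSHA and 542, 394 and 589.8 CPM with p140. miR-2110 had 109.8, 71.8 and 89.9 CPM with full-length DROSHA and 256, 214 and 185 CPM with p140. Neither overlapped between groups, and they rose by 1.68 and 1.27 (edgeR, adjusted p = 0.0014 and 0.0063), values that became 0.18 and -0.39 on the DROSHA-independent scale. In wild type miR-941 had 67 reads and in the knockout 1, and miR-2110 had 85 and 1.

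All 17 tested members of the DROSHA-independent list (mirtrons, miR-320a and miR-484) rose, between 1.56 and 2.21, with a median of 1.89 against -0.11 over all tested miRNAs. The list was written with earlier results of these data known, so it is no independent evidence of the direction. miR-320a had 42938, 40491 and 23572 CPM with full-length DROSHA and 183164, 166356 and 51024 CPM with p140. miR-484, from the capped first exon of NDE1 (chr16:15643301-15643322, plus strand), had 3636, 3775 and 3754 CPM with full-length DROSHA and 15025, 13551 and 7805 CPM with p140. Replicate 3 was the lowest p140 library for both, and the changes were 1.90 ± 0.46 and 1.70 ± 0.23. The largest change in the list was 2.21 ± 0.34, of the RPS6KA4 mirtron miR-1237-3p.

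As a share of all miRNA reads the list made up 5.0, 4.57 and 2.76% with full-length DROSHA and 21.1, 19.0 and 7.08% with p140. The groups did not overlap, with means of 4.11% ± 1.19 and 15.7% ± 7.58 (SD, n = 3 each). The difference of 11.6 percentage points had p = 0.1 in a two-sided exact permutation test, the smallest that 3 against 3 libraries allow. It was 15.3 without both replicates 3, and 1.74 without miR-320a, which alone made most of the share. Of 10 tested miRNAs whose reads may be fragments of other small RNAs, 7 rose and 0 fell (median 1.57), and 10 rose with the replicate number as a block or without replicates 3. The summed share of that list ran from 0.0750% to 0.0889% in the full-length libraries and from 0.233% to 0.359% in the p140 ones.

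Among the 10 most abundant miRNAs of the full-length libraries, 7 passed the test, against 59.6% of all tested miRNAs. Besides miR-320a, given above, the changes of these 7 were under 2-fold. miR-21-5p, an oncogenic miRNA in an exon of VMP1 (chr17:59841273-59841294, plus strand), had 348484, 378008 and 392984 CPM with full-length DROSHA and 189920.0, 205907 and 233996 CPM with p140. The p140 libraries were all lower, and the change was -0.83 ± 0.11 (edgeR, adjusted p = 9.2e-04). let-7i-5p and let-7f-5p, of the growth-restraining let-7 family, both fell, with log2 fold changes of -0.73 ± 0.12 and -0.63 ± 0.11. miR-221-3p, which represses the cell cycle inhibitor p27, fell by 0.38, while miR-222-3p from the same transcript rose by 0.44 and miR-31-5p by 0.30, both of which turn to -1.18 and -1.24 on the DROSHA-independent scale. The call of miR-221-3p was lost in 2, that of miR-222-3p in 5 and that of miR-31-5p in 6 of the 6 fits that leave out 1 library, and miR-31-5p also lost it without both replicates 3 (0.18, adjusted p = 0.1, edgeR). miR-29a-3p, let-7a-5p and miR-16-5p had values of 0.00 ± 0.12, 0.25 ± 0.13 and 0.03 ± 0.15 and did not pass the test, though let-7a-5p did with the replicate number as a block (edgeR, adjusted p = 0.035) and without replicates 3 (0.012).

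Reads were also summed over miRNAs with the same seed, because these share predicted targets. The groups hold only miRNAs matched to a RefSeq sequence, which is 92.3% to 94.2% of reads in the full-length libraries and 79.8% to 91.6% in the p140 ones, and among those unmatched are miR-320a, miR-21-3p, miR-374a-5p and miR-186-5p, so ranks are among matched miRNAs alone. Of 339 seed groups, 109 fell (32.2%) and 99 rose (29.2%). The seed AGCUUAU, of miR-21-5p and miR-590-5p, took 34.8, 36.8 and 36.6% of reads with full-length DROSHA and 18.8, 20.2 and 26.0% with p140. No p140 library reached a full-length one, and the group fell, with a log2 fold change of -0.91 ± 0.11 (edgeR, adjusted p = 4.7e-04). Its members differed in size of change, since miR-590-5p, in an intron of EIF4H, had 212, 233 and 381 CPM with full-length DROSHA and 29.6, 20.0 and 74.4 CPM with p140, a change of -2.70 ± 0.48.

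The other 7 of the 8 groups with most reads had log2 fold changes closer to 0. The seed GCUACAU (miR-221-3p and miR-222-3p) took 12.1, 12.1 and 9.48% of reads with full-length DROSHA and 13.8, 13.6 and 12.7% with p140, and the opposite changes of its members left a sum of 0.08 ± 0.13 that did not pass (adjusted p = 0.6, edgeR). The let-7 seed GAGGUAG and AUUGCAC (miR-92a-3p and miR-25-3p) fell slightly, at -0.26 ± 0.09 and -0.41 ± 0.10, calls lost in 4 and 3 of 6 fits without 1 library. AGCACCA (miR-29), AAAGUGC (miR-17 and miR-93), GGCAAGA (miR-31) and AGCAGCA (miR-16 and miR-15) had values of 0.02 ± 0.20, -0.08 ± 0.14, 0.21 ± 0.09 and -0.27 ± 0.17 and did not pass. AGCACCA was a called fall, at -0.24, without both replicates 3 (edgeR, adjusted p = 0.02) and, at -0.32, without p140 replicate 3 (adjusted p = 0.041). Together these 8 seed groups took 68.5% ± 1.08 of reads with full-length DROSHA and 56.8% ± 6.44 with p140 (SD, n = 3 each), and the p140 values were 52.3, 53.9 and 64.2%.

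Among these matched seed groups at 1000 CPM or more, the largest falls were those of CACAGUG (miR-128-3p, a brain-enriched miRNA with 2 copies, of which that in an intron of R3HDM1 was kept), AAGGUGC (miR-18a-5p and miR-18b-5p), GCGGGGC (miR-744-5p) and AGGUAGU (miR-196b-5p and miR-196a-5p). Their log2 fold changes were -2.60 ± 0.16, -1.36 ± 0.34, -1.30 ± 0.18 and -1.11 ± 0.18. The CACAGUG group took 0.221, 0.213 and 0.177% of reads with full-length DROSHA and 0.0374, 0.0350 and 0.0413% with p140, with no overlap. The largest rises were those of CUAAGGA (miR-4521), UAGAGGA (miR-877-5p), UCCCACC (miR-1260b and miR-1260a) and CAGGCUC (miR-484), at 2.08 ± 0.29, 1.98 ± 0.47, 1.93 ± 0.23 and 1.61 ± 0.22. The last was -0.09 on the DROSHA-independent scale, whose list holds miR-484 itself. Without full-length replicate 3 the seed groups that rose numbered 53, and without p140 replicate 3 they numbered 155.

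The 5p and 3p arms of a hairpin come from the same cut, and the ratio between them does not depend on how libraries are scaled. Both arms could be tested in 112 hairpins. In 50 of these both arms were called, always in the same direction, and across the 112 hairpins the log2 fold changes of the arms had Pearson's r = 0.96, a description over hairpins measured in the same 6 libraries. For miR-374a the 5p and 3p arms had -3.47 and -3.86, for miR-185 (TANGO2 intron) -2.05 and -2.18, for miR-340 (RNF130 intron) -2.08 and -1.87, and for the mirtron miR-877 2.09 and 1.78.

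No hairpin had a shifted arm ratio (0 of 112, 0%) at an adjusted p under 0.05 in edgeR's quasi-likelihood test of arm and DROSHA form, with 3 at an unadjusted p under 0.05. limma on the log2 ratios gave 0, with 4 unadjusted. The shift was under 2-fold for 109 hairpins, with a median size of 0.20, a range of -1.23 to 0.97 on the log2 scale and a median standard error of 0.34, so smaller shifts were not detectable at this depth. For the mir-21 hairpin, the best covered, the 5p arm made up 98.7, 98.8 and 98.8% of reads with full-length DROSHA and 99.1, 98.9 and 99.0% with p140. The mean share was 98.8% ± 0.084 and 99.0% ± 0.10 (SD, n = 3 each), and the groups did not overlap, at a log2 shift of 0.33 ± 0.15 (edgeR, adjusted p = 0.94).

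**Figure D3:**
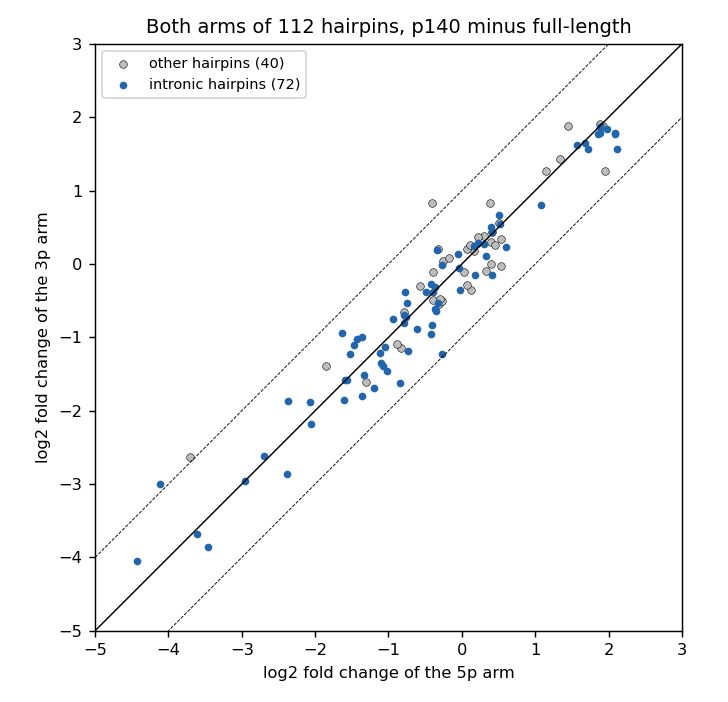
Log2 fold change (p140 minus full-length) of the 3p arm against that of the 5p arm for 112 hairpins, with intronic hairpins in blue, the line of equal change solid and 2-fold differences dashed. Points follow the line from below -4 to above 2.

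Hairpins of 1 cluster, by contrast, often changed by different amounts. Clusters are chains of hairpins with gaps of up to 10 kb on 1 strand, and their members need not share a transcript. A test of the same kind, added after the data were seen, took the ratio of any 2 hairpins in a cluster, called neighbours. Some lie further apart, such as miR-532-5p and miR-502-3p at 11482 nt. Only single-copy miRNAs entered, so that miR-16-2-3p stands for its hairpin. Of 92 pairs, 37 (40.2%) shifted, in 12 of 34 clusters, and 45 had an unadjusted p under 0.05 (edgeR, Benjamini-Hochberg). Pairs of 1 cluster share hairpins and are not independent, so 1 hairpin that parts from the rest can shift several pairs. The CLCN5 cluster, with 8 tested hairpins, gave the most pairs and the most shifts. In MIR17HG, the host transcript of the proliferation-linked miR-17/92 hairpins, 8 of 15 pairs shifted, and each of these 8 held miR-19a-3p or miR-18a-5p. miR-19a-3p (chr13:91350939-91350961, plus strand) and miR-20a-5p (chr13:91351072-91351094, plus strand) start 133 nt apart. The ratio of miR-19a-3p to miR-20a-5p reads was 0.793, 0.813 and 0.573 with full-length DROSHA and 0.138, 0.161 and 0.154 with p140. Every p140 library was far below every full-length one, a log2 shift of -2.25 ± 0.18 (adjusted p = 1.6e-04, edgeR). In levels, miR-19a-3p and miR-18a-5p fell, with log2 fold changes of -2.45 ± 0.30 and -1.31 ± 0.35, while miR-20a-5p, miR-17-5p and miR-92a-3p, at -0.27 ± 0.33, -0.31 ± 0.31 and -0.19 ± 0.13, did not pass the test, but did with the replicate number as a block (adjusted p = 0.016, 0.0058 and 0.028, edgeR). The ratio of miR-18a-5p to miR-20a-5p shifted by -1.06 ± 0.13.

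The widest ranges within a cluster of 3 or more tested hairpins were found around MIR503HG, in CDC20B and in MIR17HG. In the X-linked miR-424/503 group, linked to cell cycle exit, miR-450b-5p had 45.5, 44.8 and 60.4 CPM with full-length DROSHA and 3.29, 6.68 and 5.51 CPM with p140, which is 1, 2 and 2 reads with p140, and fell by 3.22. miR-503-5p and miR-424-5p had -0.09 ± 0.22 and 0.51 ± 0.52 and did not pass (with the block, adjusted p = 0.53 and 0.014, edgeR). The ratio of miR-450b-5p to miR-503-5p was 0.109, 0.112 and 0.122 with full-length DROSHA and 0.00980, 0.0179 and 0.0106 with p140, a shift of -3.15 ± 0.31. In CDC20B, miR-449c-5p, at a mean of 23.6 CPM over the 6 libraries, fell by 2.95, while miR-449a had 0.34 ± 0.48. The ratio of miR-449a to miR-449c-5p reads was 1.36, 1.39 and 2.38 with full-length DROSHA. With p140 it was 4.33, 33 and 45, a wide spread at low counts.

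The narrowest ranges were those of 3 clusters in which 0 members fell. They were the miR-23b/27b/24 hairpins in C9orf3, with values from -0.03 to 0.30, the miR-23a/27a/24 hairpins, from -0.33 to 0.21, and the sensory miR-183, miR-96 and miR-182 group, from 0.12 to 0.83. In the first 1 of 5 members rose, in the second 0 of 5 and in the third 1 of 6. The rise in the first was miR-24-3p, at 0.30 ± 0.11 (edgeR, adjusted p = 0.044). It has 2 copies and was counted at the mir-24-1 hairpin alone, so the contrast of the first and second clusters rests on that placement.

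Further neighbours are named here because of their values. miR-221-3p (chrX:45746180-45746202, minus strand) and miR-222-3p (chrX:45747036-45747056, minus strand), 856 nt apart, had a read ratio of 0.609, 0.606 and 0.663 with full-length DROSHA and 0.339, 0.340 and 0.393 with p140, a shift of -0.81 ± 0.07 (adjusted p = 2.5e-04, edgeR). In SPACA6, miR-99b-5p fell by 1.60 while miR-125a-5p had 0.39 ± 0.15 (edgeR, adjusted p = 0.053, and 0.004 with the block). Their ratio was 1.51, 1.78 and 0.931 with full-length DROSHA and 0.396, 0.380 and 0.266 with p140, a shift of -1.99 ± 0.29. In DALRD3, the ratio of miR-425-5p to miR-191-5p shifted by -0.94 ± 0.20, in MCM7 that of miR-25-3p to miR-93-5p by -0.85 ± 0.13, and in SMC4 that of miR-15b-5p to miR-16-2-3p by -1.54 ± 0.26. Counts of pairs ranged from 30 to 40 when 1 library was left out, were 37 without both replicates 3 and 49 with the replicate number as a block.

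**Figure D4:**
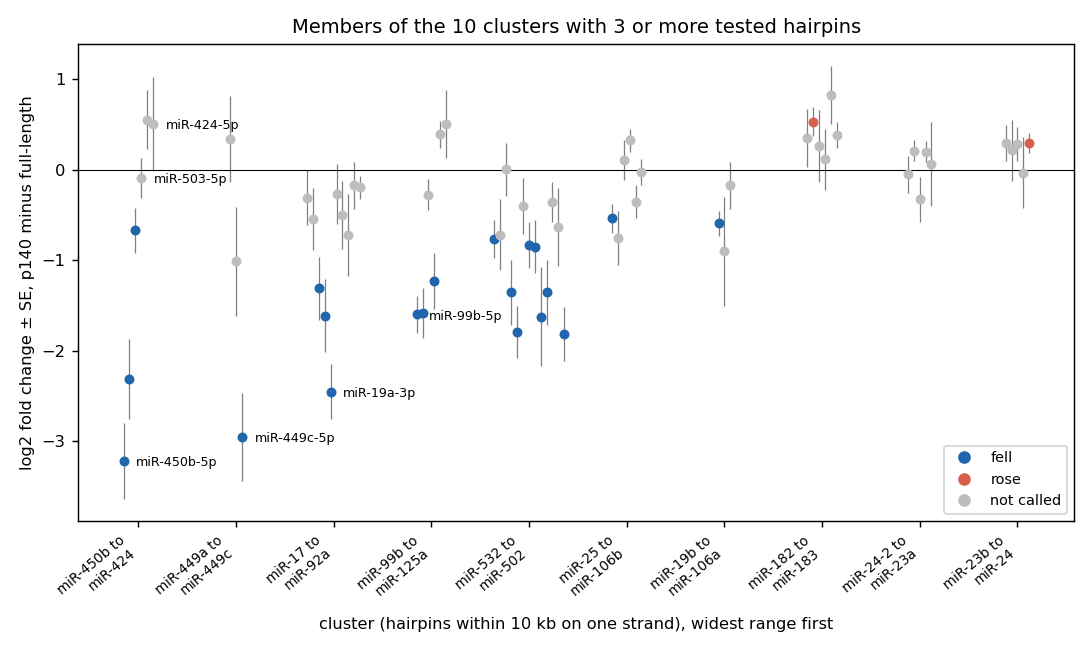
Log2 fold change ± standard error of every tested mature miRNA in the 10 clusters with 3 or more tested hairpins, widest range first, coloured by call. miR-450b-5p, miR-449c-5p and miR-19a-3p lie below -2 beside neighbours near 0.

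Hairpins were placed on GENCODE 29 gene models, with the DROSHA-independent list left out of the classes. miRNAs in introns of coding genes had a median log2 fold change of -0.61 (193 miRNAs, 87 fell and 42 rose) and those in introns of noncoding genes -0.39 (54, with 22 and 8). In exons of coding genes the median was 1.27 (21, with 4 and 13), in exons of noncoding genes 0.13 (27, with 4 and 2), and between genes 0.37 (59, with 9 and 19), against -0.11 over all tested. Where transcripts differ in whether the hairpin is intron or exon, the median was 1.3 in coding genes (36, with 5 and 18) and -0.63 in noncoding genes (16, with 5 and 1), and 23 miRNAs with copies in several classes had 0.30 (3 and 7). Intronic miRNAs lay 0.84 below exonic and intergenic ones in median, and 0.40 below with no filter on low counts. Pairs of numbers 1, 2 and 3 gave differences of -0.89, -0.95 and -0.66. These medians are descriptions, as hairpins of 1 transcript are not independent.

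Among the intronic miRNAs, those of longer introns were lower. In 4 groups of intron length, from the shortest to the longest, the medians were 0.60, -0.63, -0.78 and -1.18, with 11 of 63, 31 of 63, 31 of 59 and 36 of 62 miRNAs that fell, and Spearman's rho was -0.44 across 247 miRNAs. Part of the shortest group, with introns of 79 to 1692 nt, was above wild type in the GFP knockout library, namely 31 of 63, against 4 of 62 in the longest, with introns of 23988 to 216192 nt. Among miRNAs lower in the knockout the medians were -0.37, -0.69, -0.89 and -1.18, and rho was -0.23 across 197. The hairpins of miRNAs that fell were longer and less GC-rich than those that rose, with medians of 91 nt and 51.1% GC against 79 nt and 62.5%. Among miRNAs lower in the knockout, these were 90 nt and 50.9% against 84.5 nt and 50.9%.

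**Figure D5:**
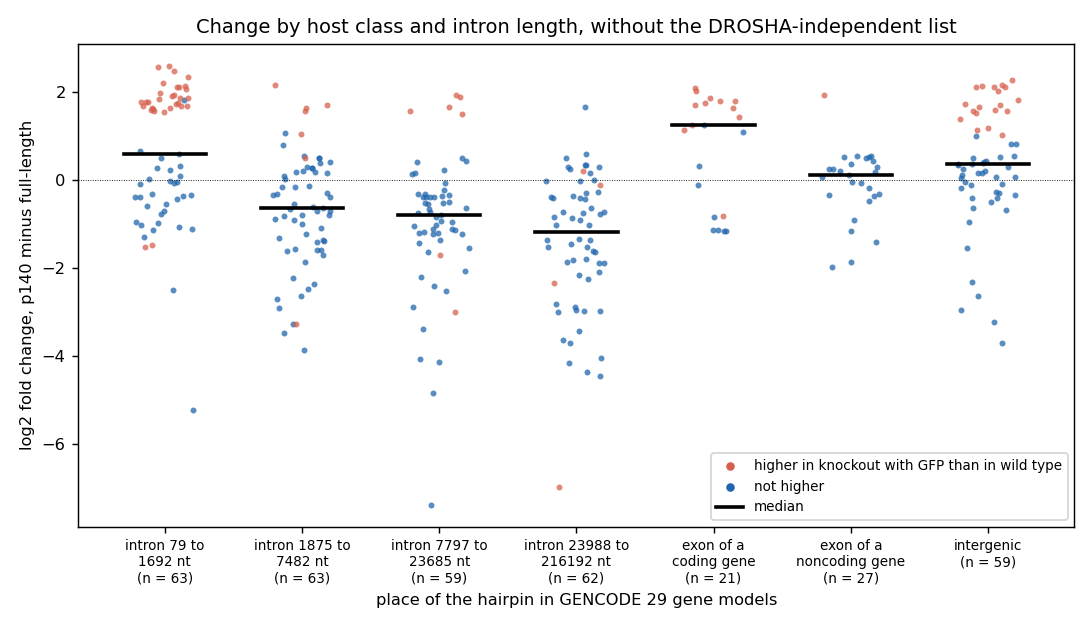
Log2 fold change of each tested miRNA by group of host intron length and by class outside introns, without the DROSHA-independent list, with the median as a bar and miRNAs higher in the knockout with GFP in red. The median falls from 0.60 in the shortest introns to -1.18 in the longest, and the red points gather in the shortest introns, in exons of coding genes and between genes.

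Lists of related miRNAs are described by their counts beside the 31.2% and 28.5% of all tested. They were chosen with earlier results of these data known, so their counts are no independent evidence of a direction. Of 20 tested arms of conserved intronic miRNAs, 17 fell and 0 rose, with a median of -1.57. miR-128-3p had 2217, 2193 and 1905 CPM with full-length DROSHA and 378, 357 and 372 CPM with p140, and miR-590-5p, given above, fell most, while miR-93-5p, the most abundant, had 0.32 ± 0.13 (edgeR, adjusted p = 0.061, and 0.0063 with the block). Of the miR-148 and miR-152 family, which represses DNA methyltransferases and HLA-G, 3 of 5 fell (median -1.02), with miR-148a-3p at -0.50 ± 0.14 and miR-148b-5p at -1.43 ± 0.43. Of the miR-99, miR-100 and miR-125 miRNAs 2 of 7 fell (median -0.28), and miR-100-5p had -0.28 ± 0.11 (edgeR, adjusted p = 0.054, and 0.0065 with the block). With a block for the replicate number, the conserved intronic list had 18 falls and 1 rise, the miR-148 and miR-152 list 4 and 0, and the miR-99, miR-100 and miR-125 list 4 and 1. Without replicates 3 the last had 5 falls and 2 rises and the conserved intronic list 17 and 1, and miR-93-5p and miR-100-5p passed (adjusted p = 0.011 and 0.0015, edgeR). Leaving out 1 library ended the call of miR-148a-3p in 4 and that of miR-148b-5p in 3 of 6 fits.

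The miR-130, miR-301 and miR-454 seed group shows how far members with the same seed could part. miR-454-3p (chr17:59137787-59137809, minus strand), in an intron of SKA2, had 910.3, 982 and 1082 CPM with full-length DROSHA and 128, 100.2 and 176 CPM with p140. It fell by 2.87 on the log2 scale (edgeR, adjusted p = 1.5e-04). miR-301a-3p (chr17:59151149-59151171, minus strand) lies in the same intron and had 2141, 2088 and 3408 CPM with full-length DROSHA and 1594, 1579.9 and 2706 CPM with p140. The groups overlapped, and its value of -0.38 ± 0.28 did not pass (edgeR, adjusted p = 0.27, 0.001 without replicates 3, and 0.0035 with the replicate number as a block). Of the 5 tested members 2 fell and 0 rose (median -1.11), and 4 fell with the block or without replicates 3.

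The remaining lists moved in both directions or not at all. Of 7 miR-181 miRNAs 2 fell and 2 rose (median -0.40), with miR-181b-3p at -1.51 ± 0.41 and miR-181a-5p at 0.51 ± 0.15, the latter -1.11 on the DROSHA-independent scale. Of 3 miR-26 miRNAs, made from introns of CTDSP phosphatase genes, 1 rose (median 0.27), miR-26b-5p at 0.60 ± 0.14, which was -1.0 on that scale, and miR-26a-5p had 0.27 ± 0.11 (edgeR, adjusted p = 0.055, and 0.011 with the block). Without replicates 3, 2 miR-26 miRNAs rose, and 3 miR-181 miRNAs fell. Of 5 in the miR-183, miR-96 and miR-182 list 1 rose (median 0.38), miR-182-5p at 0.53 ± 0.16, which was -1.10 on that scale, and 3 with the block or without replicates 3. The calls of miR-181a-5p, miR-26b-5p and miR-182-5p were lost in 5, 2 and 4 of the 6 fits that leave out 1 library. None of 7 tested miRNAs of the lipid-linked miR-103, miR-107 and miR-33 list was called by edgeR or DESeq2, with 0 at an unadjusted p under 0.05 (median -0.13), and miR-103a-3p had 0.04 ± 0.10.

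Markers of cell types are given by list. Of 6 colon epithelium markers 3 fell and 1 rose (median -0.75), with the intestinal miR-192-5p at -1.98 ± 0.44 on 3, 3 and 7 reads with p140, and miR-31-5p as given above. Without replicates 3, 4 fell and 0 rose, and with the block 4 fell and 1 rose. Of 3 fibroblast and smooth muscle markers 1 rose (median 0.43), miR-145-5p at 1.08 ± 0.37, which was -0.68 on the DROSHA-independent scale and lost its call in 5 of 6 fits without 1 library. The 2 tested muscle and neural markers were not called by edgeR or DESeq2, with 0 at an unadjusted p under 0.05, and the neural miR-9-5p had 112, 114 and 303 CPM with full-length DROSHA and 105, 90.2 and 298 CPM with p140. It was highest in replicate 3 of both groups. The blood and pluripotency lists had 0 tested members.

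In HEK293E knockout cells with the same pair of DROSHA forms, fewer rises than falls were called among the 350 miRNAs tested in both lines. The shares of HCT116 calls that were called again are given beside those base shares, and falls and rises were not tested against each other. Of the 120 HCT116 falls that were tested there, 68 fell (56.7%) and 0 rose, against 20.9% of miRNAs tested in both lines. Of the 88 rises tested there, 17 rose (19.3%), against 5.43%. Seen from the other line, 93.2% of the 73 HEK293E falls and 89.5% of the 19 HEK293E rises were called the same way in HCT116. miR-1296-5p fell by 4.58 in HEK293E, and miR-625-3p fell by 3.01 there.

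The effect of p140 differed between the lines for 17 of 515 miRNAs (3.3%) by the interaction of line and DROSHA form (edgeR, Benjamini-Hochberg), with 105 at an unadjusted p under 0.05 and 21 by DESeq2. The 5 with the smallest p were miR-1260b, miR-454-3p, miR-374b-5p, miR-425-5p and let-7f-5p. miR-454-3p had -2.87 in HCT116 and -0.84 in HEK293E, and miR-374b-5p -3.62 and -1.64. miR-425-5p, next to miR-191-5p in DALRD3, had -1.56 and -0.23, and let-7f-5p -0.63 and 0.37. miR-1260b, a possible fragment of another RNA, had 2.02 and 0.42. With the replicate number within each line as a block 102 miRNAs differed, without both HCT116 replicates 3 there were 77, and with each line scaled to its DROSHA-independent miRNAs 0 (72 at an unadjusted p under 0.05).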

How the data were processed

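The values the authors deposited are raw read counts per mature miRNA and hairpin. The tools behind them, per the submitters' processing notes, were bedtools, STAR and cutadapt, on hg38. For versions, the miRNA annotation and multiply mapped reads, the sources used here give nothing. Per the labels' protocols, spike-in RNAs were mixed into the total RNA and randomized adaptors were ligated; spike-in reads were not used here. For 167 of 2588 mature miRNAs with several copies the copy with the highest total was kept. The unit met the plan, so the planned tests were used.

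Groups and replicate numbers come from the titles. The two-sided quasi-likelihood F test of edgeR 4.0.16 (R 4.3.3) was used after filterByExpr (minimum count 10) and TMM scaling, with Benjamini-Hochberg adjustment and a threshold of 0.05, over the 6 HCT116 libraries for levels, seed groups, arm ratios and neighbour ratios, and over 12 libraries for the interaction with line. Arm and neighbour ratios were tested with the library as a block. DESeq2 1.42.0 and limma 3.58.1 were alternatives, with other scalings and filters, thinned libraries and fits without single libraries. The tests were tried on simulated counts first. CPM are TMM-scaled for the 6 libraries and plain for the single reference libraries. Counting error limits low values, and reads are not independent molecules. Same-numbered libraries deviated together (correlations of 0.47, 0.36 and 0.68 for numbers 1, 2 and 3), which meets the rule used for pairing. Numbers 1 and 2 were not set apart from each other, with 0.37 for full-length 2 with p140 1 and 0.30 for full-length 1 with p140 2, while number 3 had -0.56 to -0.44 with the others. Blocked values stand beside named calls and list counts that they change.

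Of the tested miRNAs, 390 matched a RefSeq mature sequence by name and 355 a hairpin. Coordinates are hg38, counted from 1. Members and lists were chosen with earlier results of these data known. Named miRNAs are the 8 largest falls and rises (adjusted p under 0.05, 100 CPM or more, no overlap), the 10 most abundant, the 8 leading seed groups and the 4 largest falls and rises among those at 1000 CPM or more, the 3 clusters of widest and narrowest range, for each list the most abundant member and the called member with the largest change, and the 5 smallest interaction p. Others were named after their values were seen. Of the 8 largest rises, 1 is not reported here by name.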

Additional observations from a re-analysis of the deposited data

Results flagged for a closer look

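The effect of p140 on 8 of the miRNAs named in the report differed between the 2 cell lines by the interaction test (edgeR, 12 libraries, Benjamini-Hochberg). Given as HEK293E minus HCT116 on the log2 scale, the differences were 1.96 for miR-454-3p (adjusted p = 0.0038), 1.90 for miR-374b-5p (0.0062), 0.99 for miR-374a-5p (0.042) and 2.39 for miR-421 (0.012). For miR-425-5p it was 1.28 (0.0062) and for let-7f-5p 0.94 (0.012). These 6 were lower with p140 in HCT116, and less so, or not, in HEK293E. For miR-1260b the difference was -1.67 (0.0038) and for miR-4286 -1.79 (0.049), both of which rose in HCT116 and did not pass in HEK293E. On the DROSHA-independent scale 0 miRNAs differed between the lines.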

How the results depend on the processing

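Of 1058 values of single miRNAs, seed groups or pairs under an alternative setting, 876 kept their direction and side of the threshold, 84 lost the call, 41 gained it and 57 turned in sign. Where settings moved a value, the cause was not tested, except that a stricter filter tests fewer miRNAs. With a minimum count of 50 there were 78 falls and 68 rises, and on the DROSHA-independent scale 0 rises, 0 seed groups that rose and 0 line differences. Without miR-320a the share of the DROSHA-independent list differed by 1.74 percentage points, and with no filter intronic miRNAs lay at -0.40 against the others. Leaving out 1 library gave 108 to 197 falls, 70 to 191 rises, 76 to 161 seed groups that fell, 53 to 155 that rose, 30 to 40 neighbour pairs, 0 shifted arms, 8.94 to 16 percentage points for the share and -0.93 to -0.80 for intronic against other miRNAs.

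With the replicate number as a block, which the pairing check allows, there were 169 falls, 157 rises and 102 line differences. Without both HCT116 replicates 3, line differences numbered 77. With the block miR-29a-3p turned to -0.0024 and AGCACCA to -0.012. Otherwise the block ended no call.

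On the DROSHA-independent scale the sign turned for miR-222-3p (-1.18), miR-29a-3p (-1.51), let-7a-5p (-1.39), miR-31-5p (-1.24), miR-16-5p (-1.48), miR-145-5p (-0.68), miR-26a-5p (-1.33), miR-26b-5p (-1.0), miR-103a-3p (-1.55), miR-182-5p (-1.10), miR-181a-5p (-1.11) and miR-93-5p (-1.31), and for the seeds GCUACAU (-1.43), AGCACCA (-1.36), GGCAAGA (-1.24) and CAGGCUC (-0.092). With no filter it turned for miR-29a-3p (-0.29), let-7a-5p (-0.051), miR-31-5p (-0.0076), miR-16-5p (-0.25), miR-26a-5p (-0.032), miR-103a-3p (-0.27), GCUACAU (-0.17), AGCACCA (-0.21) and GGCAAGA (-0.028). Without replicates 3 it turned for miR-29a-3p (-0.13), miR-16-5p (-0.035), miR-103a-3p (-0.011), GCUACAU (-0.087) and AGCACCA (-0.24, then a called fall). miR-9-5p was 0.044 by DESeq2, 0.041 in the joint fit, 0.052 with RLE factors, 0.056 with library totals and 0.070 with a minimum count of 50, and AAAGUGC 0.035 by DESeq2. Without 1 library, values ranged from -0.18 to 0.081 for miR-29a-3p, -0.18 to 0.11 for miR-16-5p, -0.94 to 0.40 for miR-9-5p, -0.11 to 0.066 for miR-103a-3p, -0.072 to 0.15 for GCUACAU, -0.32 to 0.23 for AGCACCA and -0.28 to 0.050 for AAAGUGC. Depth limits miRNAs near 1 to 10 reads in the p140 libraries.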
